A study of Mus musculus with 37 samples.

Results

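The interaction of oral antibiotics with morphine was examined in adolescent male mice: how far the morphine effect in animals on antibiotics differed from the morphine effect in animals on water. It was computed as the difference between morphine and saline on antibiotics minus the same difference on water. The 18 adolescent libraries with more than 1000000 counts were used, of 37 libraries in the series. All animals were wild type C57BL/6J males. Adolescents started at postnatal day 25 and adults at postnatal day 55, and both were given subcutaneous saline or 15 mg/kg morphine for 5 days while on oral antibiotics or on water. Among adolescents, 5 libraries came from water with saline, 5 from water with morphine, 3 from antibiotics with saline and 5 from antibiotics with morphine. Another library of adolescents on antibiotics with saline (replicate 3) had under 1000000 counts and was left out of the main fit. The adults had 3, 5, 5 and 4 libraries in the same order. They serve as a comparison and were fitted together with the adolescents, so adolescent p-values rest on a spread estimated from both ages. The tissue label reads brain, with all cell types, and medial prefrontal cortex appears in the title of the series. They name neither the antibiotics nor the time between the last injection and collection. They also do not say that the libraries of a group came from separate animals, so p-values measure only the spread between these libraries, which may be technical.

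Of the 11 named genes that carried the interaction, 7 are on lists of activity-regulated genes and 4 on none. Those lists hold 58 of the 19332 genes tested and were chosen with earlier results of these libraries known. Neurons that fire or receive growth factor signals activate the ERK kinases and CREB, which switch on immediate early genes within minutes, first transcription factors such as Fos and Egr1 and then effectors that act at synapses. The same signals induce their own brakes, among them the Sprouty proteins, the dual-specificity phosphatases (Dusp) that inactivate ERK, and Nab2, which represses the EGR factors. Fos and Egr1 are widely used as readouts of recent neuronal activity.

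The adolescent libraries held 10630727 to 31560468 counts, with a median of 17189624. Slc17a7, which loads glutamate into the vesicles of excitatory cortical cells, stood at 1490 to 1940 CPM (counts scaled to a library of 1000000) in 17 of them and at 1170 in replicate 1 of water with saline. That library stood apart: it held 53.3 CPM of Drd2, a dopamine receptor of striatal neurons, against 0.688 to 2.59 in the other 17, and 8550 CPM of the myelin gene Mbp against 534 to 2890. Results are therefore also given without it. Insulin transcripts (Ins1 and Ins2 together), which come from pancreatic islets, exceeded 20 counts in 7 adolescent libraries, at least 1 in each group.

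Of 19332 genes tested, 12 (0.0621%) had an interaction at an adjusted p under 0.05, by edgeR's quasi-likelihood test with Benjamini-Hochberg adjustment over all genes. All 12 were negative, so morphine's effect was lower on antibiotics than on water, and none was positive. At an unadjusted p under 0.05 there were 617 negative (3.19%) and 642 positive (3.32%) genes, and DESeq2 called 22 negative and 4 positive. One of the 12 has a predicted name and is not described. The other 11 were Spry4, Stk40, Per1, Nab2, Dusp5, Klf10, Midn, Ier5l, Sik1, Dnajb5 and Frmd6. In each of the 11, the mean was higher in morphine than in saline animals on water, and lower in morphine than in saline animals on antibiotics. Spry4, Stk40, Per1, Nab2 and Klf10 passed in each of the 18 fits that left out 1 adolescent library and in each of 8 other settings. The number of genes called was 5 without replicate 5 of antibiotics with saline, 6 without replicate 2 of that group and 21 without replicate 4 of water with saline. Without the library that stood apart it was again 12, of which 10 were shared.

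RefSeq promoter windows (GRCm38.p6) were found for 8 of the 11 genes. The 250 bases before the transcription start were searched on both strands for TGACG, the core of the cAMP response element that CREB binds, for its full palindrome TGACGTCA, and for the CArG box, which serum response factor binds. At least 1 window held TGACG for 5 of the 8 genes (Stk40, Per1, Dusp5, Midn and Dnajb5), against 28.5% of the 12594 tested genes with a window. The palindrome was in none of the 8, against 2.83%, and a CArG box was in 1, Dusp5, against 1.46%. CACGTG, the E-box that clock factors bind, was in 3 (Per1, Midn and Frmd6), against 9.2%. A gene counted if any of its windows matched. Genes with several starts, here Per1, Midn and Dnajb5, thus had more chances of a match. Of all 32851 windows, 17.8% held TGACG. A match describes these letters in this window and is not evidence of binding. The windows of the 5 genes with a TGACG match are shown because these members moved together, with 1 window a gene where RefSeq gives several starts. Capitals mark TGACG or its reverse complement CGTCA and, in Dusp5, a pair of abutting CArG boxes.
Dusp5, chr19:53528895-53529144, plus strand: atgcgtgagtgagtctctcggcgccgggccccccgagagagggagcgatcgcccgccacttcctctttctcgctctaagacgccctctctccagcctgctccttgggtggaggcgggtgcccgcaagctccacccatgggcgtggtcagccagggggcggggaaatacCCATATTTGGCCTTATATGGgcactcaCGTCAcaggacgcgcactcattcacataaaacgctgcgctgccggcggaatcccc
Per1, chr11:69099902-69100151, plus strand: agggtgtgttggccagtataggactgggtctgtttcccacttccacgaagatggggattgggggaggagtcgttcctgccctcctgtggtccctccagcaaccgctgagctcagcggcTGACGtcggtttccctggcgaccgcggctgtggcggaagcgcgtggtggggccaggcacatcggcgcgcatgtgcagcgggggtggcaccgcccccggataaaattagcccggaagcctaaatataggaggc
Stk40, chr4:126103707-126103956, plus strand: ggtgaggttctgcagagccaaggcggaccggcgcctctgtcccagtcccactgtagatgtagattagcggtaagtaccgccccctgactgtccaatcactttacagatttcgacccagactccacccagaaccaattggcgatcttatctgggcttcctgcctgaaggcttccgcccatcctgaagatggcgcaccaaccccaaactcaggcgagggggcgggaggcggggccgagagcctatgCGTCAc
Midn, chr10:80148022-80148271, plus strand: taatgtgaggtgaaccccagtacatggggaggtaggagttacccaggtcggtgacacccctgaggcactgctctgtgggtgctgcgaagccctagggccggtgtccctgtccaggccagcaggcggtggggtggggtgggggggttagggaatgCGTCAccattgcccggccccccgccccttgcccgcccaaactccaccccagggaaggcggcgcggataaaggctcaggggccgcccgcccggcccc
Dnajb5, chr4:42949617-42949866, plus strand: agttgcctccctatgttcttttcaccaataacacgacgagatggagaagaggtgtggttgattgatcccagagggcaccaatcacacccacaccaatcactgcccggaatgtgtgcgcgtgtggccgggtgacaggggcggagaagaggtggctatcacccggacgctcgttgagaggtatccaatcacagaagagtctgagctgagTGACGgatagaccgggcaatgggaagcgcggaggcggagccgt
In these windows TGACG starts 55 bases before the start site in Dusp5, 132 in Per1, 6 in Stk40, 96 in Midn and 43 in Dnajb5.

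**Figure D1:**
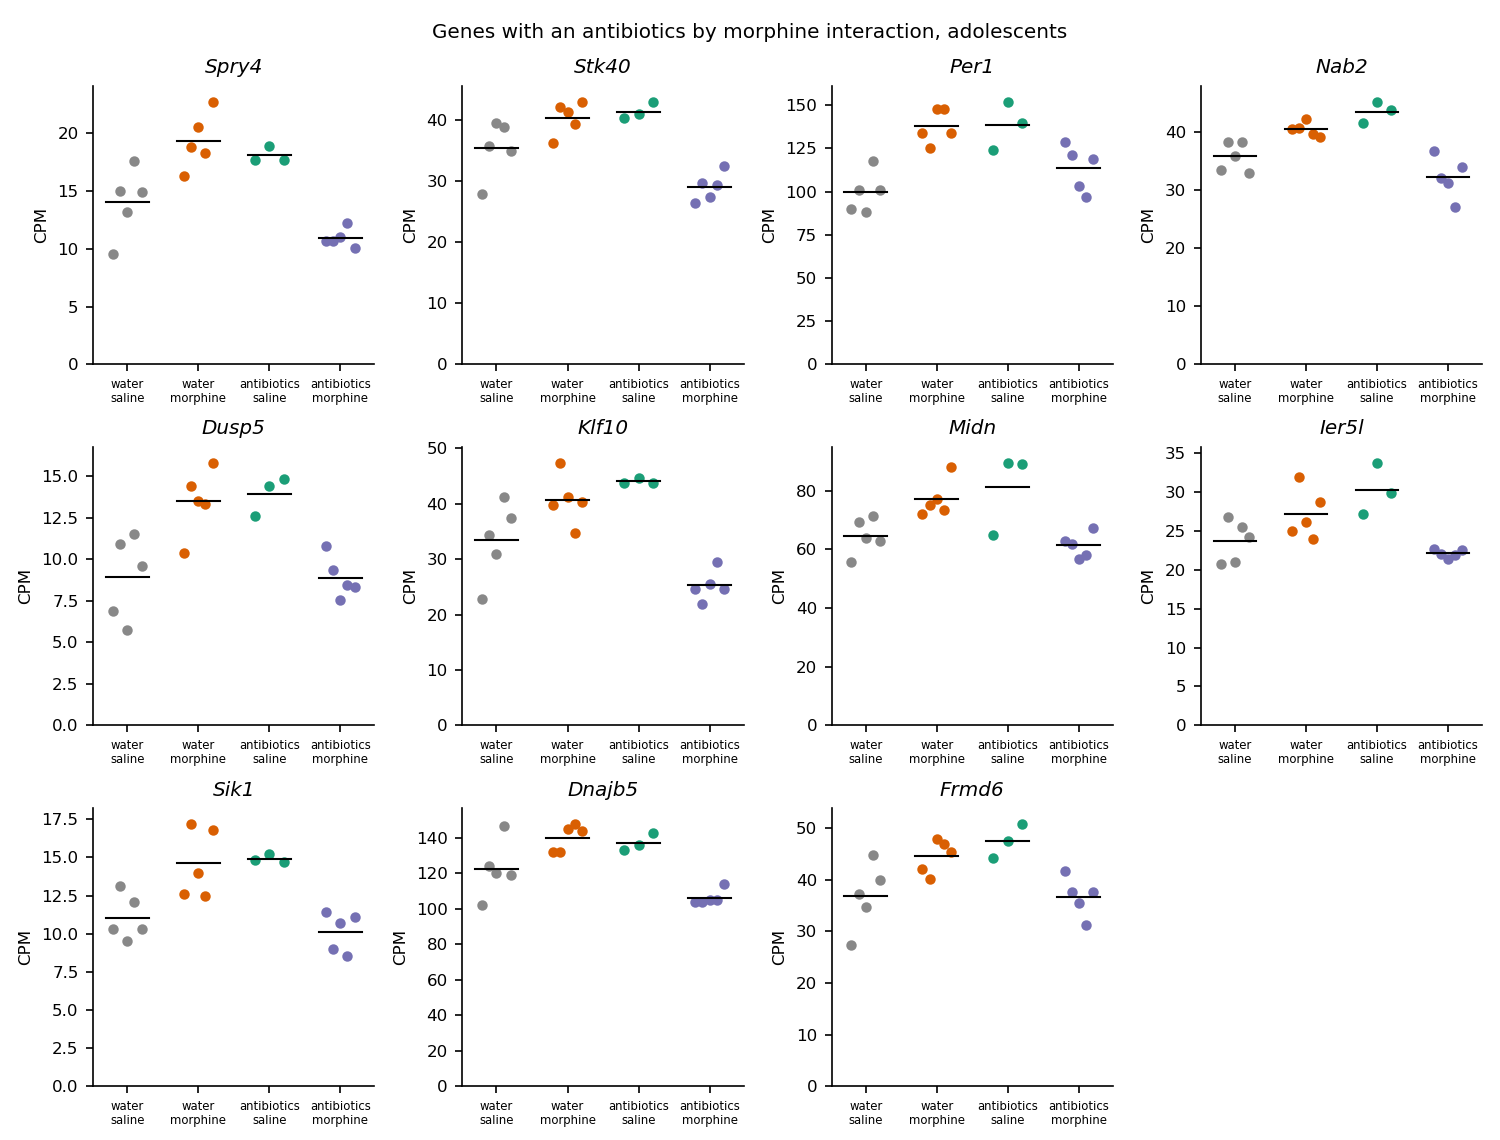
CPM of the 11 named genes with an interaction in the 18 adolescent libraries (1 point each, horizontal lines are group means, y axes start at 0). In 9 of the 11 genes every library of antibiotics with morphine lies below every library of antibiotics with saline, against 4.43% of all genes. The same libraries chose these genes, so the count is a description.

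The ERK feedback list held 4 of the 11 genes. Spry4, a Sprouty protein that dampens receptor tyrosine kinase signalling to ERK, was at 9.56, 15, 13.2, 17.6 and 14.9 CPM in the 5 libraries of water with saline and at 16.3, 18.8, 20.5, 18.3 and 22.7 with morphine. On antibiotics it was at 17.7, 18.9 and 17.7 CPM with saline and at 10.7, 10.7, 11, 12.2 and 10.1 with morphine. The antibiotic and morphine libraries thus lay below every library of both groups that had only 1 of the treatments. Of water with saline, only replicate 1, the library that stood apart, was lower than they were. The interaction was -1.20 on the log2 scale (SE 0.18, adjusted p = 0.0017, edgeR), with a 95% interval of -1.56 to -0.83. On antibiotics, morphine lowered Spry4 (log2 fold change -0.73, adjusted p = 0.0135), while on water the fold change was 0.47 and its adjusted p was 0.0705. The fall on antibiotics did not pass without any 1 of the 3 saline libraries on antibiotics, without replicate 1, 2 or 5 of antibiotics with morphine, with adjusted p-values up to 0.122 in edgeR, or with the adolescent libraries alone.

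Dusp5, a nuclear phosphatase of ERK, was at 6.88, 10.9, 5.76, 11.5 and 9.61 CPM on water with saline and at 10.4, 14.4, 13.5, 13.3 and 15.8 with morphine. On antibiotics it was at 12.6, 14.4 and 14.8 CPM with saline and at 10.8, 9.34, 7.55, 8.44 and 8.35 with morphine. Among animals on antibiotics the groups did not overlap. The interaction of -1.24 (SE 0.22, adjusted p = 0.00841, edgeR) was the most negative of the 11 genes. Its adjusted p was 0.0543 without replicate 5 of antibiotics with saline and 0.0696 with the adolescent libraries alone. Neither morphine effect passed alone, with log2 fold changes of 0.60 on water (adjusted p = 0.0562) and -0.64 on antibiotics (adjusted p = 0.193).

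Nab2 was at 33.5, 38.3, 35.9, 38.3 and 33 CPM on water with saline, and at 40.5, 40.6, 42.2, 39.7 and 39.2 with morphine. On antibiotics it was at 41.5, 45.2 and 43.7 CPM with saline and at 36.7, 32.1, 31.3, 27.1 and 33.9 with morphine. Both groups given a single treatment lay wholly above water with saline and above antibiotics with morphine. The interaction was -0.61 (SE 0.10, adjusted p = 0.00341, edgeR). Stk40, a pseudokinase with a kinase-like fold, is on the ERK feedback list although it is neither a phosphatase nor a Sprouty protein. It was at 27.9, 35.6, 39.5, 38.7 and 34.8 CPM on water with saline, at 36.1, 42, 41.2, 39.3 and 42.9 on water with morphine, at 40.2, 40.9 and 42.8 on antibiotics with saline, and at 26.3, 29.7, 27.3, 29.3 and 32.4 on antibiotics with morphine. Its interaction was -0.71 (SE 0.11, adjusted p = 0.0017, edgeR). Morphine on antibiotics lowered Stk40 (log2 fold change -0.51, adjusted p = 0.00407) and Nab2 (-0.43, adjusted p = 0.0132 in edgeR). Without replicate 5 of antibiotics with saline neither fall passed, with adjusted p-values of 0.102 and 0.122. The fall of Nab2 also did not pass without replicate 2 of either antibiotic group.

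Across the 16 tested genes of the ERK feedback list, 4 had a negative interaction past the threshold and none a positive one, and 12 did not pass. At an unadjusted p under 0.05, 9 were negative and none positive, against 3.19% and 3.32% of all genes. The median interaction of the list was -0.35, against 0.01 over all genes tested, and it ranged from -0.41 to -0.30 when any 1 library was left out. Morphine's effect was above 0 on water and below 0 on antibiotics in 13 of the 16 genes (81.2%), a sign pattern found in 21.4% of all genes. The pattern is not particular to this list. Its share in lists of other kinds ran from 0% of microglial genes to 71.4% of nuclear respiratory chain genes and 81.8% of meningeal and fibroblast genes. Dusp6, the cytoplasmic phosphatase of ERK, was at 36.1, 69.6, 64.1, 89.1 and 72.5 CPM on water with saline, at 77.2, 79.6, 77.5, 82.5 and 74.7 with morphine, at 65.7, 80.8 and 92.9 on antibiotics with saline and at 50.7, 46.1, 47.3, 46.6 and 55.3 with morphine. Its interaction of -0.94 (SE 0.21) had an adjusted p of 0.113, and of 0.0188 (value -0.78) without the library that stood apart, both in edgeR. It also passed in DESeq2 (0.00454) and voom (0.0263). Dusp1, a phosphatase of several MAP kinases, had -1.10 with an adjusted p of 0.633.

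**Figure D2:**
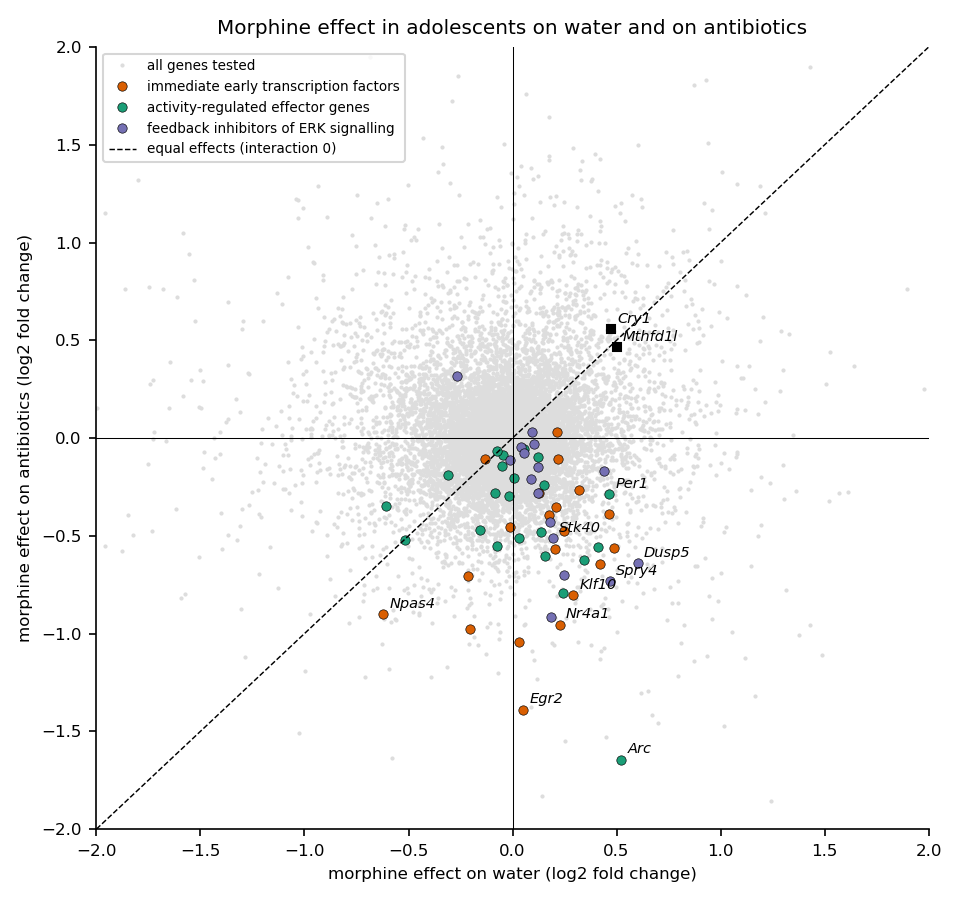
Log2 fold change of morphine on water (x axis) and on antibiotics (y axis) for 19294 genes (grey), with 38 genes outside the axes not drawn; coloured points are the 3 activity lists, black squares are Mthfd1l and Cry1, and genes on the dashed line have an interaction of 0. The listed genes lie mostly below the line. In the quadrant of a positive value on water and a negative one on antibiotics lie 39 of 58, against 21.4% of all genes. In lists not coloured here the count ran from 0 of 17 microglial genes to 9 of 11 meningeal and fibroblast genes.

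Among the immediate early transcription factors, Klf10, a Krüppel-like factor induced early by TGF-beta and other signals, passed. It was at 22.9, 34.4, 31, 41.3 and 37.4 CPM on water with saline and at 39.7, 47.4, 41.2, 34.8 and 40.4 with morphine. On antibiotics it was at 43.8, 44.6 and 43.7 CPM with saline and at 24.7, 21.9, 25.6, 29.5 and 24.7 with morphine. The 2 antibiotic groups were separated by more than 10 CPM, while the water groups overlapped. The interaction was -1.10 (SE 0.19, adjusted p = 0.00841, edgeR), and morphine lowered Klf10 on antibiotics (-0.80, adjusted p = 0.0135). That fall did not pass without any 1 of the 3 saline libraries on antibiotics, nor without replicate 1 or 2 of antibiotics with morphine, with adjusted p-values up to 0.122.

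The 20 tested transcription factors of that list had a median interaction of -0.65, from -0.80 to -0.54 when any 1 library was left out and -0.59 without the library that stood apart. Of them, 1 passed as negative, none as positive and 19 did not pass. At an unadjusted p under 0.05, 12 were negative, against 3.19% of all genes, and 19 were below 0, against 48.1%. Nr4a1, an orphan nuclear receptor, was at 50.8, 97.1, 65.7, 124 and 91.5 CPM on water with saline, at 87.2, 105, 103, 91.4 and 114 with morphine, at 97.9, 129 and 126 on antibiotics with saline and at 61.6, 60.5, 56.4, 55.6 and 68.4 with morphine. The antibiotics with morphine group again lay below both single treatments, while water with saline spanned nearly the whole range. Its interaction was -1.18 with an adjusted p of 0.154 in edgeR and of 0.0261 in DESeq2. Fos was at 14.5, 27.2, 14, 40.7 and 33.9 CPM on water with saline, at 18, 24.8, 28.9, 23.6 and 37.6 with morphine, at 23.6, 29.8 and 42.4 on antibiotics with saline and at 13.6, 15, 11.6, 13.7 and 23.6 with morphine. Its groups overlapped or touched, and the interaction of -1.07 (SE 0.51) had an adjusted p of 0.764. The corresponding values were -0.77 (0.257) for Fosb, -0.72 (0.633) for Egr1, -1.44 (0.633) for Egr2, -0.77 (0.804) for Junb and -0.28 (0.965) for Npas4, the first number being the log2 interaction and the number in brackets its adjusted p. Csrnp1, an immediate early nuclear protein, missed the threshold with -1.06 and an adjusted p of 0.0543, and passed in DESeq2 (0.00679) and with all 37 libraries (0.0485). For Ier5 the values were -0.58 and 0.109, with 0.0211 in DESeq2.

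Among the activity-regulated effectors, Per1 and Sik1 passed. Per1, a repressor of the circadian clock that CREB also induces, was at 90, 101, 88.4, 118 and 101 CPM on water with saline and at 134, 125, 148, 148 and 134 with morphine. On antibiotics it was at 124, 152 and 140 CPM with saline and at 129, 121, 103, 97 and 119 with morphine. The water groups did not overlap, and the antibiotic groups overlapped. The interaction was -0.75 (SE 0.12, adjusted p = 0.00341, edgeR). Per1 was the one gene of the 11 that morphine raised on water (log2 fold change 0.47, adjusted p = 0.00782), a call that ended in voom and with the adolescent libraries alone. On antibiotics the fold change was -0.28 (adjusted p = 0.400). Sik1, a kinase that restrains CREB's co-activators, was at 10.3, 13.1, 9.51, 12.1 and 10.3 CPM on water with saline, at 12.6, 17.2, 14, 12.5 and 16.8 with morphine, at 14.8, 15.2 and 14.7 on antibiotics with saline and at 11.4, 9, 10.7, 8.51 and 11.1 with morphine. Its interaction was -0.97 (SE 0.20, adjusted p = 0.0342, edgeR). It passed in 6 of 18 fits that left out a library. Its adjusted p reached 0.125 without replicate 2 of antibiotics with saline and was 0.0505 without the library that stood apart.

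Arc, a synaptic protein that moves glutamate receptors off the membrane, had the largest shift of the named effectors and did not pass. It was at 57.1, 114, 67.8, 211 and 155 CPM on water with saline, at 102, 207, 176, 148 and 238 with morphine, at 116, 194 and 254 on antibiotics with saline and at 56.6, 45.5, 51.4, 67.7 and 79.9 with morphine. The spread within water with saline covered most of this range, and the interaction of -2.17 (SE 0.60) had an adjusted p of 0.376 in edgeR. Bdnf, a neurotrophin, was at 21.5, 41.5, 42.6, 43.5 and 37.1 CPM on water with saline, at 39.3, 39.2, 42.5, 35.9 and 32 with morphine, at 35, 35.4 and 39 on antibiotics with saline and at 25, 24.8, 24.8, 25.5 and 27.8 with morphine. Its interaction was -0.54 with an adjusted p of 0.633, while it was lower with antibiotics among morphine animals (-0.56, adjusted p = 0.0281), a call kept in 12 of 18 fits that left out a library. Tiparp, a mono-ADP-ribosyltransferase, had -0.75 with an adjusted p of 0.101, and -0.87 with 0.0103 without the library that stood apart. It also passed in DESeq2 (0.0261), in voom (0.00291) and without a filter (0.0269). Of the 22 tested effectors, 2 passed as negative, none as positive and 20 did not pass. At an unadjusted p under 0.05, 8 were negative, against 3.19% of all genes. The median was -0.29 (-0.22 without the library that stood apart).

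Over the 58 distinct genes of the 3 lists, 53 had an interaction below 0, against 48.1% of all genes. In lists of other kinds this ran from 0 of 18 myelin genes to 20 of 21 nuclear respiratory chain genes and 11 of 11 meningeal and fibroblast genes. At an unadjusted p under 0.05, 29 were negative and none was positive, against 3.19% and 3.32% of all genes. The lists were chosen with earlier results of these libraries known, so these counts are a description. The summed CPM of the immediate early transcription factors was 731 to 961 on antibiotics with morphine, 919 to 1380 on antibiotics with saline, 908 to 1280 on water with morphine and 709 to 1300 on water with saline.

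**Figure D3:**
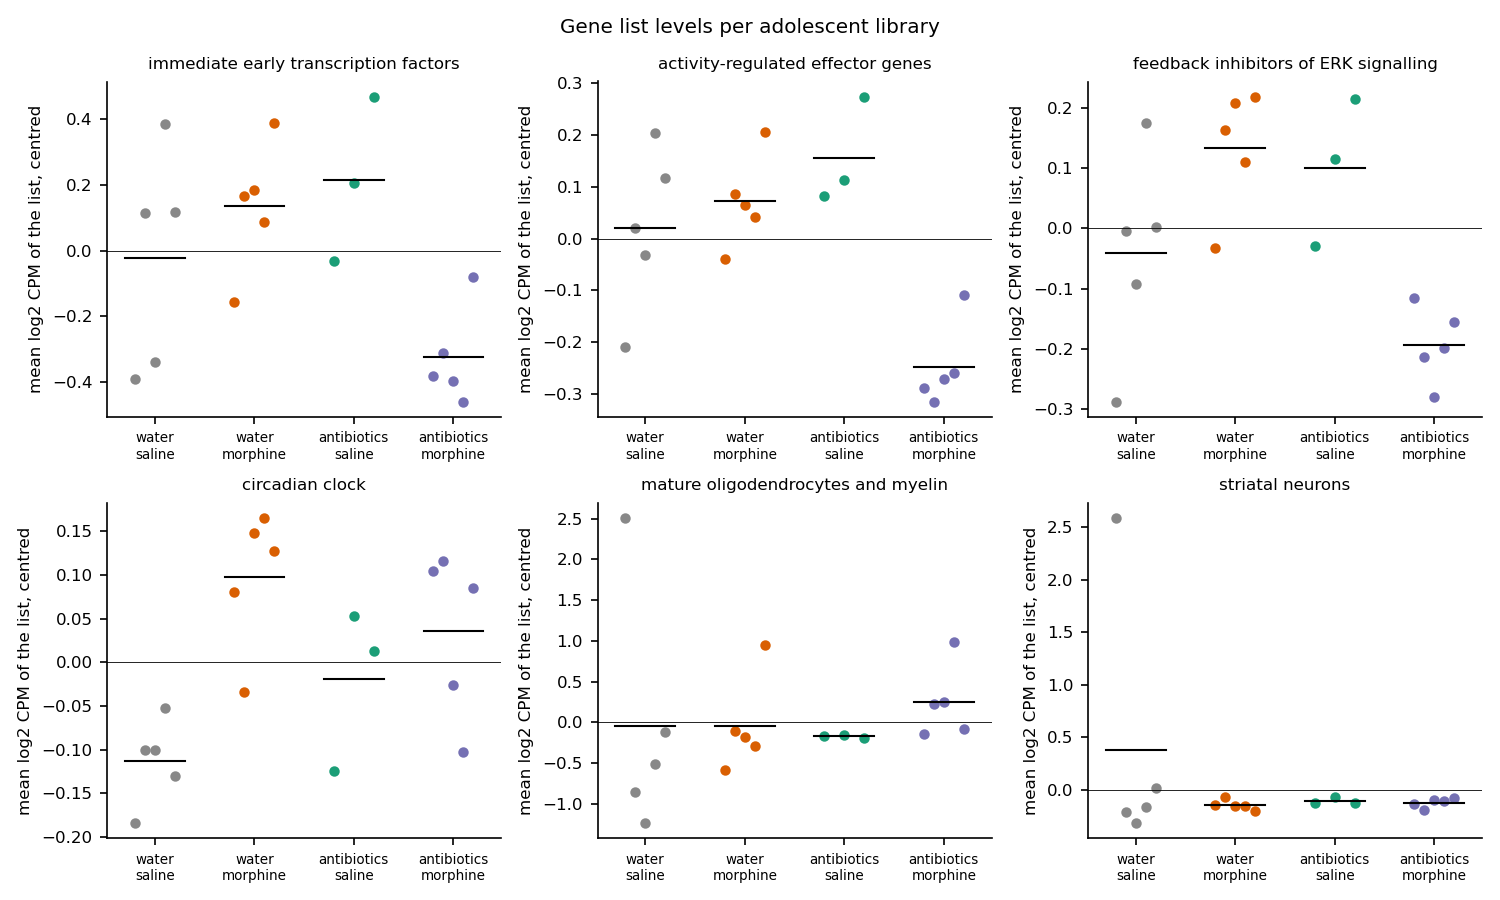
Mean log2 CPM of the genes of 6 lists in each adolescent library, centred on the mean of the group means (1 point a library, horizontal lines are group means). The 3 activity lists are low in antibiotics with morphine and widely spread in water with saline, and the striatal and myelin lists are led by replicate 1 of water with saline.

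The other 4 genes that passed are on none of the lists. Midn, midnolin, which delivers immediate early proteins to the proteasome, was at 55.7, 69.3, 63.8, 71.4 and 62.7 CPM on water with saline, at 72, 75.1, 77.3, 73.3 and 87.9 with morphine, at 64.9, 89.5 and 89.2 on antibiotics with saline and at 62.8, 61.9, 56.8, 58 and 67.4 with morphine. The water groups did not overlap, and the lowest antibiotic saline library lay within the range of antibiotics with morphine. The interaction was -0.66 (SE 0.12, adjusted p = 0.00841, edgeR). It did not pass without replicate 2 (adjusted p = 0.115) or 5 (0.0793) of antibiotics with saline, or with the adolescent libraries alone (0.0748).

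Ier5l, a relative of the immediate early gene Ier5, was at 20.7, 26.8, 21, 25.5 and 24.2 CPM on water with saline, at 24.9, 31.9, 26.1, 23.9 and 28.7 with morphine, at 27.1, 33.7 and 29.8 on antibiotics with saline and at 22.6, 22, 21.4, 21.9 and 22.5 with morphine. Its interaction was -0.65 (SE 0.13, adjusted p = 0.0174, edgeR). It did not pass with the adolescent libraries alone (adjusted p = 0.0696), nor without replicate 2 (0.169) or 5 (0.0604) of antibiotics with saline, replicate 2 of water with morphine (0.0525) or replicate 3 of water with saline (0.0514). Dnajb5, a co-chaperone of the Hsp40 family, was at 102, 124, 120, 147 and 119 CPM on water with saline, at 132, 132, 145, 148 and 144 with morphine, at 133, 136 and 143 on antibiotics with saline and at 104, 104, 105, 105 and 114 with morphine. The values on antibiotics with morphine lay below those of both single treatments in each of these genes. The interaction of Dnajb5 was -0.57 (SE 0.12, adjusted p = 0.0342, edgeR). Frmd6, a FERM-domain protein, was at 27.4, 37.3, 34.7, 44.8 and 39.9 CPM on water with saline, at 42, 40.2, 47.9, 46.9 and 45.4 with morphine, at 44.2, 47.4 and 50.8 on antibiotics with saline and at 41.6, 37.7, 35.4, 31.2 and 37.7 with morphine. Its interaction was -0.64 (SE 0.13, adjusted p = 0.0389, edgeR). Dnajb5 passed in 4 and Frmd6 in 7 of 18 fits that left out a library, with adjusted p-values up to 0.170 and 0.210, both without replicate 5 of antibiotics with saline. Without a filter neither passed (adjusted p = 0.154 for Dnajb5 and 0.112 for Frmd6). Dnajb5 also did not pass in voom (0.0519), nor Frmd6 with the islet term (0.0519) or with the adolescent libraries alone (0.414). Without the library that stood apart, Dnajb5 had -0.51 (adjusted p = 0.0690) and Frmd6 -0.55 (adjusted p = 0.0241).

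The interaction was taken apart into its 4 simple comparisons. In each of them the 11 genes had 1 sign: above 0 for morphine on water and for antibiotics with saline, and below 0 for morphine on antibiotics and for antibiotics with morphine. These comparisons share their libraries with the interaction that chose the genes, so the counts describe where the difference lies and support nothing. Morphine on water called 64 of all genes (0.331%) and 1 of the 11, and morphine on antibiotics called 9 (0.0466%) and 4 of the 11. Antibiotics with saline called 2 genes (0.0103%), both higher, and none of the 11. No gene was lower in that comparison in the main edgeR fit, with 1020 lower at an unadjusted p under 0.05 and 22 lower in DESeq2. Antibiotics with morphine called 214 genes (1.11%), 121 of them lower (0.626%), and 8 of the 11, all 8 lower: Spry4, Stk40, Nab2, Dusp5, Klf10, Midn, Sik1 and Dnajb5. These counts moved with single libraries. The count for morphine on water moved by over 1.5 times without 8 of its 10 libraries, to 20 without replicate 1 of water with saline, 9 without replicate 5 of water with morphine and 262 without replicate 5 of water with saline. That for antibiotics with morphine moved as much without 8 of its 10 libraries, to 62 without replicate 1 of antibiotics with morphine, and to 390 without replicate 1 of water with saline. That for morphine on antibiotics became 0 without replicate 5 of antibiotics with saline and 33 without replicate 1 of water with saline.

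Of the same 8, Spry4 (log2 -0.82), Stk40 (-0.47), Nab2 (-0.32), Klf10 (-0.69) and Dnajb5 (-0.40) passed in all 18 fits that left out a library. Dusp5, Midn and Sik1 passed in 10, 12 and 11 of them. Every library of antibiotics with morphine lay below every library of antibiotics with saline in 9 of the 11 genes, a pattern held by 4.43% of all genes. It lay below every library of water with morphine in 8 of the 11, against 2.28%. Antibiotics with saline lay above every library of water with saline in 8 of the 11, against 2.64%, although none of these increases passed. Water with morphine lay above every library of water with saline in 3 of the 11 (Per1, Nab2 and Midn), against 0.652%.

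Mthfd1l and Cry1 rose with morphine on both drinking regimes. Mthfd1l, a mitochondrial enzyme of folate metabolism, was at 12.8, 16.3, 14.3, 14.3 and 14 CPM on water with saline and at 19.6, 20.2, 21.9, 19.6 and 19.5 with morphine. On antibiotics it was at 14.4, 15.6 and 15.5 CPM with saline and at 22.5, 21.4, 21.2, 19.1 and 20.2 with morphine. Morphine raised it without overlap on water (log2 fold change 0.50, adjusted p = 9.76e-05) and on antibiotics (0.47, adjusted p = 0.00407 in edgeR). The interaction was -0.04, with a 95% interval of -0.24 to 0.17. Cry1, a clock repressor, rose by 0.47 on water (adjusted p = 0.0144) and by 0.56 on antibiotics (adjusted p = 0.0135), with an interaction of 0.08 and a 95% interval of -0.19 to 0.36. The increase on antibiotics did not pass without replicate 1 or 5 of antibiotics with saline for either gene. For Cry1 it also did not pass without replicate 1 or 2 of antibiotics with morphine, and its increase on water did not pass without replicate 3 or 5 of water with morphine. With the adolescent libraries alone neither increase of Cry1 passed.

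Per2, a partner of Per1 in the clock, stood between these patterns. It rose with morphine on water (0.59, adjusted p = 0.000199), was at 0.19 on antibiotics, and had an interaction of -0.40 (SE 0.12) with an adjusted p of 0.493. Of 21 tested clock genes, 1 (Per1) passed as negative, none as positive and 20 did not pass. The list's median interaction was -0.10, and its summed CPM was 1750 to 2030 on water with saline, 2130 to 2280 on water with morphine, 1940 to 2150 on antibiotics with saline and 2000 to 2210 on antibiotics with morphine. The part of the clock in the Per1 result was not tested. Among 24 tested glucocorticoid-responsive genes, Per1 again was the 1 that passed, with a median of -0.14. Fkbp5 and Sgk1, induced by glucocorticoid receptors, had interactions of 0.26 and -0.23 that did not pass. Oprm1, the receptor that morphine binds, was at 2.62 to 4.56 CPM over the 18 libraries with an interaction of 0.23, and its 95% interval ran from -0.26 to 0.72. None of the 8 opioid receptor and peptide genes passed.

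No gene with a positive interaction passed in the main edgeR fit. Those of smallest p were Ripor2 (0.36, adjusted p = 0.101), Patz1 (0.44, 0.115), Sipa1l3 (0.36, 0.139), Fbxo21 (0.26, 0.159) and Flrt3 (0.52, 0.166), where the numbers are the log2 interaction and the adjusted p in edgeR. In DESeq2, Ripor2 (adjusted p = 0.0314), Patz1 (0.0471), Sipa1l3 (0.0471) and Fbxo21 (0.0261) passed, and Flrt3 did not. In other edgeR fits, Fbxo21 passed with a replicate block (adjusted p = 0.0252) and Ripor2 without replicate 4 of water with saline (0.0265). Among the negative genes that did not pass, Gpr3, a receptor that raises cAMP without a ligand, had -0.91 with an adjusted p of 0.113, and passed in DESeq2 (0.0355) and without a filter (0.0299).

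Cell type lists were followed beside the activity genes. In bulk tissue, fewer cells of a type and less RNA per cell cannot be told apart. The myelin list had a median interaction of 1.20 and the striatal list 1.09, and without replicate 1 of water with saline these were -0.17 and 0.01. No gene of either list passed. Mbp had an interaction of 1.37 (adjusted p = 0.804), and of -0.10 without that library. Drd2 had 3.63 (adjusted p = 0.633). Over the other 17 libraries the striatal list's summed CPM lay between 395 and 488.

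The summed CPM of 18 cortical excitatory neuron markers was 2980 to 3210 on antibiotics with morphine, 3030 to 3090 on antibiotics with saline, 2770 to 3110 on water with morphine and 2320 to 3090 on water with saline, where the lowest was the library that stood apart. Slc17a7 had an interaction of -0.03 with a 95% interval of -0.26 to 0.21. Summed myelin markers were higher on antibiotics with morphine (3180 to 7420) than on antibiotics with saline (2960 to 3050), without overlap, and stood at 2200 to 7010 on water with morphine and 1440 to 22100 on water with saline. Summed microglial markers were 448 to 495 on antibiotics with morphine, 501 to 548 on antibiotics with saline, 470 to 547 on water with morphine and 550 to 636 on water with saline. Summed interneuron markers were 1170 to 1270, 1280 to 1460, 1190 to 1380 and 808 to 1520 in the same order. The part of these shifts in the activity results was not tested. The meningeal and fibroblast list had a median interaction of -0.60, with none of 11 genes passing, and its summed CPM spread from 282 to 955 within antibiotics with saline alone.

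**Figure D4:**
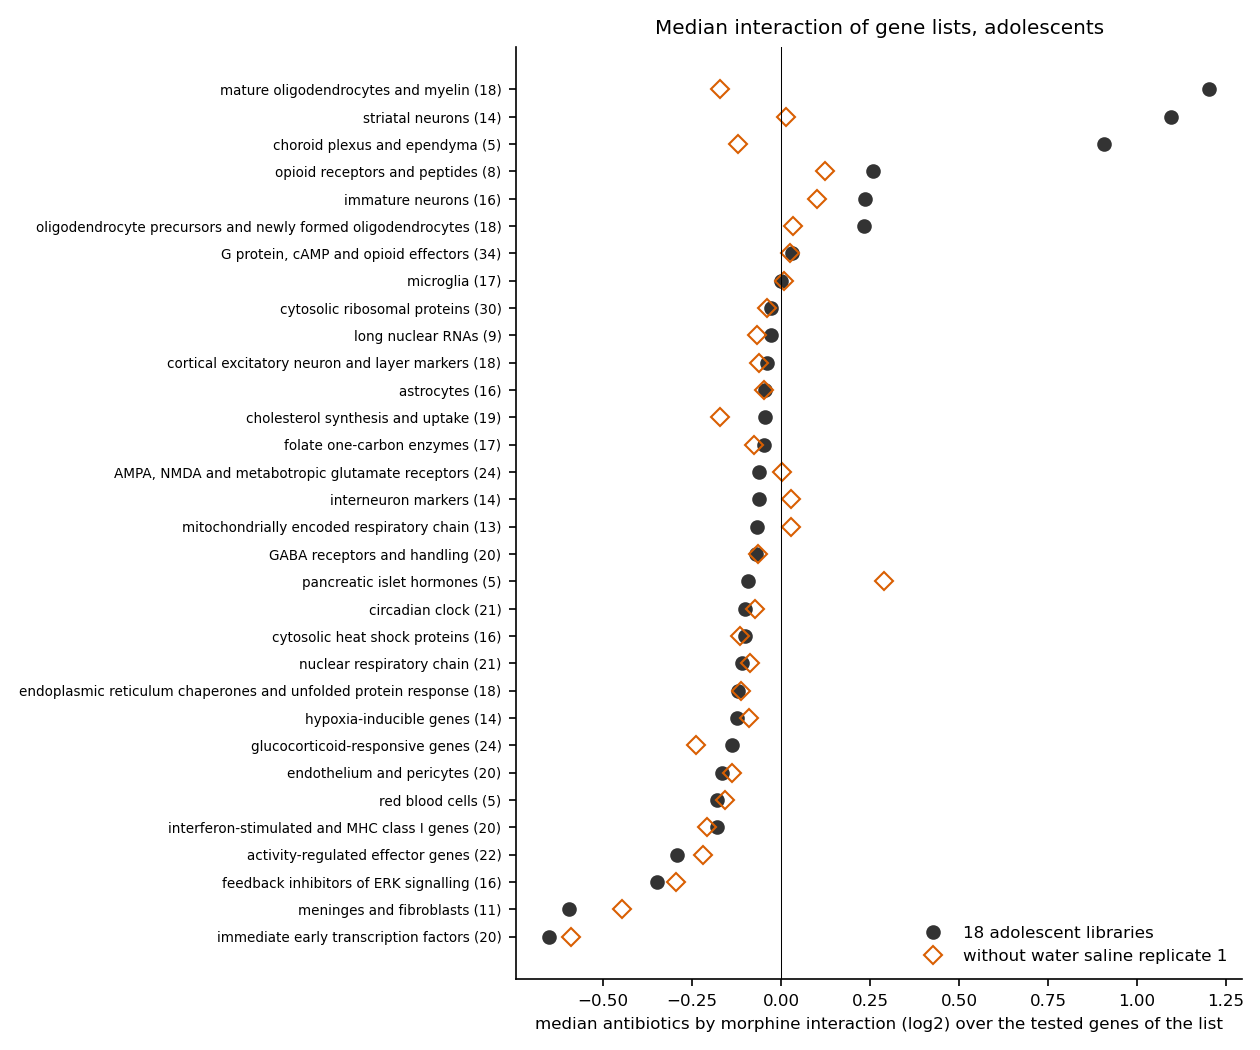
Median log2 interaction of the tested genes of each list with at least 5 tested genes (number in brackets), with all 18 adolescent libraries (filled) and without replicate 1 of water with saline (open). The immediate early, ERK feedback and effector lists stay below 0 in both, while the myelin, striatal and choroid plexus lists move from 1.20, 1.09 and 0.91 to -0.17, 0.01 and -0.12.

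The study's title names age-dependent effects, so the same interaction was computed in adults, from separate libraries in the same fit. In adults 1 gene of 19332 (0.00517%) passed, Ppp1r10, a regulatory subunit of protein phosphatase 1, with -0.37 (adjusted p = 0.0318, edgeR), and it passed in 7 of 17 fits that left out an adult library. None of the 11 adolescent genes passed in adults, and 4 of them had an adult value below 0. The 3-way difference, adolescent interaction minus adult interaction, passed for 5 genes (0.0259%). Of these, 3 are among the 11: Midn (-0.94, adjusted p = 0.0245), Nab2 (-0.82, adjusted p = 0.0242) and Stk40 (-0.81, adjusted p = 0.0429). The others were Ppp1r10 (0.48, adjusted p = 0.0245) and 1 gene with a predicted name. Without replicate 3 of adults on water with saline none of the differences passed, with adjusted p-values of 0.0962 to 0.218 for the named ones, and the count was also 0 without replicate 5 of that group, replicate 1 of adults on water with morphine or replicate 2 of adolescents on antibiotics with saline. Stk40 passed in 9, Ppp1r10 in 29, Midn in 30 and Nab2 in 31 of 35 fits that left out a library. Stk40 also did not pass with all 37 libraries or with the islet term, and Ppp1r10 did not pass with all 37 libraries or without a filter.

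In adults Nab2 was at 36.1, 38.1 and 36.4 CPM on water with saline, at 35.2, 37, 38.1, 40.9 and 35.7 with morphine, at 41.7, 35.2, 34.1, 33.3 and 33.5 on antibiotics with saline and at 42.1, 39.6, 38.1 and 46.9 with morphine. Stk40 was at 29.6, 36 and 34.4 CPM on water with saline, at 29.5, 34.1, 33.1, 37.3 and 36.8 with morphine, at 31, 31.6, 29.6, 30.5 and 29.9 on antibiotics with saline and at 33.7, 33.6, 34.8 and 32.3 with morphine. In Stk40 every adult library of antibiotics with morphine lay above every one of antibiotics with saline, the opposite order to adolescents. The interactions of these genes in adults were 0.21 for Nab2, 0.11 for Stk40 and 0.28 for Midn.

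The 3-way difference of Spry4 was -0.88 with an adjusted p of 0.794, of Klf10 -1.14 with 0.393 and of Per1 -0.73 with 0.393, so a difference between ages was not shown for them. The adolescent value was below the adult value in all 11 genes, which their choice by a negative adolescent value largely fixes. The same order held in 54 of the 58 genes of the 3 activity lists and in 48.3% of all genes, and since the lists were chosen with earlier results known, this supports no difference between ages. The median adult interaction was 0.13 for the immediate early transcription factors and 0.02 for the ERK feedback list. Egr2 had 1.20 in adults and -1.44 in adolescents, and neither value passed.

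**Figure D5:**
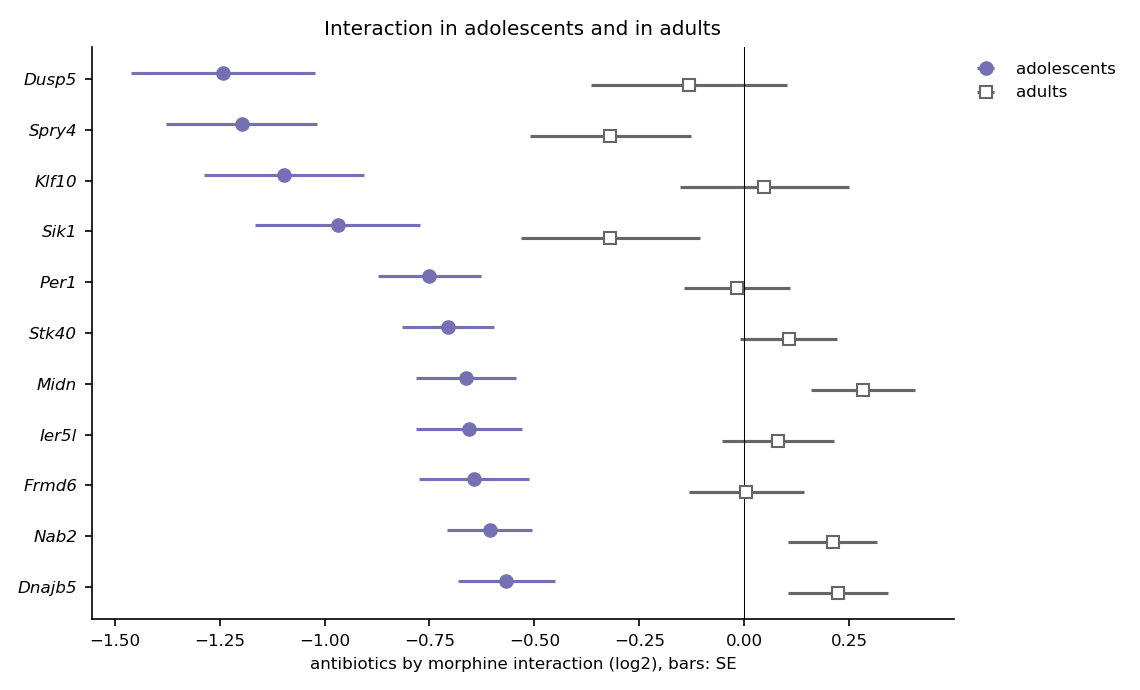
Log2 interaction of the 11 genes in adolescents (circles) and adults (squares), with bars of 1 SE. The adolescent values lie from -1.24 to -0.57 and the adult values from -0.32 to 0.28.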

How the data were processed

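Polyadenylated RNA of 37 libraries was measured. The values in the deposited table are whole, unnormalised read counts for each gene. STAR 2.7.10a, DESeq2 and mm10 are listed in the submitters' processing notes. Strand setting, annotation release and what DESeq2 was used for were not given in the sources used here, and genes overlapping on opposite strands may share reads. Symbols came from GENCODE and matched 52073 of 56980 identifiers. The unmatched 4907 held 3.86% of counts.

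Groups came from age, drinking regime and injection in the labels. The 35 libraries with over 1000000 counts were fitted in R 4.3.3 with edgeR 4.0.16 (TMM, filterByExpr on 8 groups, robust quasi-likelihood, a mean per group), with Benjamini-Hochberg adjustment over 19332 genes and a threshold of 0.05. CPM use TMM-scaled totals, and 95% intervals of log2 values use the test's degrees of freedom. Named genes are all passing genes with a usual symbol and the smallest p-values up to 24 with a mean of at least 1 CPM, the 3 smallest p-values of each of 34 lists, a set of always-given genes, and the 6 smallest p-values of the adult and 3-way tests. Genes with predicted names were counted only, and not every gene given by the rule is described. The comparison, lists and rule were chosen with earlier results of these data known.

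Alternatives were all 37 libraries, the 18 adolescent libraries alone, DESeq2 1.42.0, edgeR with DESeq2 size factors, no filter, limma 3.58.1 voom with sample weights, a replicate block, a term for islet reads and leaving out each library. The test was checked on counts simulated from the fitted spread, with set changes in adolescents on antibiotics with morphine. These counts held no library that stood apart, so the check does not cover the effect of such a library. No replicate pair agreed within sampling noise.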

Additional observations from a re-analysis of the deposited data

Results flagged for a closer look

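Some groups held a library far from the others. Water with saline, water with morphine and antibiotics with morphine were checked in adolescents. Antibiotics with saline, with 3 libraries, was too small for the check. Of 135 groups checked for 45 genes, 15 had such a library, and chance flags about 1 in 20 groups. Replicate 1 of water with saline accounted for 6 of them: Drd2 at 53.3 CPM, Penk at 270.0, Mbp at 8550, Slc17a7 at 1170, Patz1 at 36.2 and Flrt3 at 35.1. Replicate 5 of antibiotics with morphine was the highest of its group for Dnajb5 (114 CPM), Ier5 (89.0), Fos (23.6), Junb (56.9) and Bdnf (27.8). The remaining ones were Fkbp5 at 56.7 CPM in replicate 1 of antibiotics with morphine, Fbxo21 at 122 in replicate 1 of water with morphine, Mbp at 2740 in replicate 5 of water with morphine and Ins2 at 23.0 in replicate 5 of water with saline.

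In the main fit, edgeR's test of the difference between adolescents and adults called the interaction of Stk40 (-0.81), Nab2 (-0.82), Midn (-0.94) and Ppp1r10 (0.48). These are log2 values of adolescents minus adults. None of the 4 passed without replicate 3 of adults on water with saline, and Stk40 passed in 9 of 35 fits that left out a library.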

How the results depend on the processing

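The count of adolescent interaction genes was 12, and 26 in DESeq2. In the fits leaving out 1 library it ran from 5 to 21. For morphine on water the count of 64 became 4 with adolescent libraries alone, 164 in DESeq2, 40 without a filter, 11 in voom and 40 with the islet term (9 to 262 leaving out a library). For morphine on antibiotics 9 became 40 in DESeq2 and 127 in voom (0 to 33). For antibiotics with saline 2 became 1 with all 37 libraries, 0 with adolescents alone, 55 in DESeq2 and 15 in voom (0 to 30). For antibiotics with morphine 214 became 140 with all libraries, 121 with adolescents alone, 340 in DESeq2, 121 without a filter and 595 in voom (62 to 390). The adult count of 1 became 0 with all libraries and 0 without a filter (0 to 1). The age difference of 5 became 3 with all libraries, 8 in DESeq2 and 8 in voom (0 to 7). The cause of these moves was not tested.

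Replicate numbers did not pair the samples: over 24 same-numbered pairs the correlation of deviations ran from -0.127 to 0.133, and 1 of 18 libraries correlated best with its own number. With a replicate block the interaction called 17 genes, 11 of them shared, and morphine on antibiotics called 28. With the block Sik1 did not pass (adjusted p = 0.0522), nor did the age difference of Nab2, while Nr4a1 (0.0106), Fbxo21 (0.0252), Fosb (0.031), Arc (0.0359), Gpr3 (0.043) and Dusp6 (0.0477) passed in edgeR.

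Over 43 of the 134 named genes and 26 settings each, 1026 gene values kept direction and side of the threshold, 53 lost the call, 32 gained it and 7 changed sign. The sign changes were in Npas4 (0.54 in voom, and -0.66 to 0.80 leaving out a library), Cry1 (-0.001 to 0.16), Mthfd1l (-0.078 to 0.003), Mbp (-0.10 to 1.77) and Slc17a7 (0.05 in voom, and -0.077 to 0.083). They came without replicate 1 of water with saline (Mthfd1l, Mbp, Slc17a7) or replicate 1 (Cry1) or 5 (Npas4) of antibiotics with saline. None of these had passed. Some named genes outside the 43 also changed sign when a library was left out, such as Penk (-0.49 to 1.00) and Mal (-0.14 to 1.91). Neither had passed. Antibiotics with saline had 3 libraries, the fewest of the 4 adolescent groups, which limits the precision.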

Other observations

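Genes of the secretory pathway were also followed. Of 18 tested endoplasmic reticulum chaperone and unfolded protein response genes, none had an interaction past the threshold. At an unadjusted p under 0.05, 4 were negative and none positive, against 3.19% and 3.32% of all genes. Without replicate 1 of water with saline 7 were negative, where 568 of all genes were. The list's median interaction was -0.12. Sdf2l1, a chaperone partner of the endoplasmic reticulum, and Calr, the chaperone calreticulin, were lower with antibiotics among morphine animals, by log2 values of -0.69 (adjusted p = 0.00114) and -0.27 (adjusted p = 0.00245) in edgeR. Their interactions were -0.63 and -0.16 and did not pass.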
